A study of Mus musculus with 3 samples.

Results

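The ceramide synthesis enzymes described here were 10 genes chosen by name, Sptlc1, Sptlc2, Kdsr, Cers1, Cers2, Cers4, Cers5, Cers6, Degs1 and Degs2, of 55487 genes in the gene table. Their 51 transcripts were taken from a transcript table of 142699 entries. RNA was measured in embryoid bodies (EBs), aggregates in which mouse embryonic stem (ES) cells begin to differentiate, made in hanging drops without leukemia inhibitory factor from wild-type E14K cells of the 129P2/OlaHsd strain. There were 3 libraries, namely EBs given C2 ceramide, a soluble ceramide analogue with a short acyl chain, at 30 μM during the day before collection on day 4, solvent-only (DMSO) EBs collected on day 4, and DMSO EBs collected on day 3, the age at which treatment began. The labels call both DMSO libraries controls. All 3 came from 1 ES cell line and each condition had 1 library, so no difference below has a replicate check, no p-value could be given, and the 95% intervals cover counting error only. Culture-to-culture variation and errors in assigning reads to transcripts lie outside these intervals.

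De novo ceramide synthesis starts at the endoplasmic reticulum, where serine palmitoyltransferase (SPT), built around Sptlc1 and Sptlc2, condenses serine with palmitoyl-CoA. The ketone product is reduced by Kdsr, an acyl chain is added by a ceramide synthase (Cers), and the dihydroceramide desaturase Degs1 introduces the double bond that makes ceramide. Each ceramide synthase prefers acyl chains of its own range of lengths, so that the mix of these enzymes bears on which ceramides a cell can make. Degs2 has both desaturase and hydroxylase activity and makes phytoceramide in skin and intestine. C2 ceramide added to the medium is a product-like molecule, and the comparison of treated and untreated EBs asks whether the genes of the endogenous route differed in level.

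Promoter windows from RefSeq on build GRCm38.p6, covering 250 bases before to 50 bases after each annotated start, were available for all 10 genes in 11 windows. Cers1 is printed because its gene-level reads were split between transcripts that differ at the start, Cers4 and Cers6 because, among the 9 members with at least 10 counts in a library, they lay farthest apart in the response to C2 ceramide, and Degs1 and Degs2 because they were the most and the least abundant members. Capitals in Cers1 mark the 12 bases that lie between the start of its longer coding transcript and that of its shorter one, and capitals in the other sequences mark CG dinucleotides.
Cers1, chr8:70315525-70315824, plus strand: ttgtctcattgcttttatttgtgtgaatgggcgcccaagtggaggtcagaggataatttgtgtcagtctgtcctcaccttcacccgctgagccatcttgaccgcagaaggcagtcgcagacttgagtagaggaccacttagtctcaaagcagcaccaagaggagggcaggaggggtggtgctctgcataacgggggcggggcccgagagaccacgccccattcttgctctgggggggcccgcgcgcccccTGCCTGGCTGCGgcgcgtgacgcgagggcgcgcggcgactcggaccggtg
Cers4, chr8:4493155-4493454, plus strand: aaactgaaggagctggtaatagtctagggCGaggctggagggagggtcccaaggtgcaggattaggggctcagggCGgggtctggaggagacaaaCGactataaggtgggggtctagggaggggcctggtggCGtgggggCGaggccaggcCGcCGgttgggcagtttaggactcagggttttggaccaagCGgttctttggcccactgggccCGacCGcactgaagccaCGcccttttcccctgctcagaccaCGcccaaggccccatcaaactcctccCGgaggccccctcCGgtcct
Cers6, chr2:68861191-68861490, plus strand: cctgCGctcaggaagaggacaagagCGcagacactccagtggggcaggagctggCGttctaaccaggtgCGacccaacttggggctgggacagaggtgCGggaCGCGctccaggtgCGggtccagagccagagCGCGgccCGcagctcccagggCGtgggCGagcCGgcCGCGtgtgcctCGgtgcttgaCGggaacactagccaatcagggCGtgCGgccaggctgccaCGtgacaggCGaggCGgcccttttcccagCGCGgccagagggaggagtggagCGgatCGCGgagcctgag
Degs1, chr1:182282146-182282445, minus strand: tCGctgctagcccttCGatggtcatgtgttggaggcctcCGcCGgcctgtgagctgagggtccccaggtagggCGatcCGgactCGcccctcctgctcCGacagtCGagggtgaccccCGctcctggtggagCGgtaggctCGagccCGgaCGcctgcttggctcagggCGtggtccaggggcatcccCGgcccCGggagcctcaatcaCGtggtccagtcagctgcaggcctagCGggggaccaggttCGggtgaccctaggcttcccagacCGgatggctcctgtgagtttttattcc
Degs2, chr12:108702257-108702556, minus strand: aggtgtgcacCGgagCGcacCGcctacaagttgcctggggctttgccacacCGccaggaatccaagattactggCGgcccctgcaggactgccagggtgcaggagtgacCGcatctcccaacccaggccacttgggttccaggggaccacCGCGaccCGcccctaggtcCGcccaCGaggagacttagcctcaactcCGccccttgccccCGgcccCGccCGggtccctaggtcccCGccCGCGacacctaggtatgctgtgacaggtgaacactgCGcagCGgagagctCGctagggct
Degs1 and Degs2 each had 21 CG dinucleotides, Cers4 had 14, Cers1 had 22 and Cers6 had 28, against a median of 7 over 32851 windows of the same length. The Degs1 window, however, lies inside the gene, downstream of the start of its main coding transcript at base 182282804. Its CG number and motifs therefore do not describe that start. The equal CG numbers of the Degs1 and Degs2 windows are thus not a comparison of the starts behind their levels. On either strand, the letters TATAAA were found in 0 of the 11 windows (13.6% of all windows), CCAAT in 4 (37.4%), GGGCGG in 8 (35.7%) and CACGTG in 3 (7.15%). The windows with CACGTG were the first window of Cers2, that of Cers6 and that of Degs1. The Cers2 windows differed most, with 30 CG dinucleotides at the first start and 6 at the other.

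The libraries held 35290094 counts for C2 ceramide day 4, 35078820 for DMSO day 4 and 33619197 for DMSO day 3. Summed levels of 5 primitive streak and nascent mesoderm markers were 31.3 TPM (transcript levels per unit length, scaled to the same total in each library) in C2 ceramide day 4, 430.4 TPM in DMSO day 4 and 36.1 TPM in DMSO day 3, and those of 3 definitive endoderm markers were 4.28, 616.4 and 5.14 TPM in the same libraries. Summed levels of 5 pluripotent and epiblast markers were 1324, 1156 and 1475 TPM, of 3 neural markers 22.1, 15.3 and 11.4 TPM, of 4 visceral endoderm markers 2.26, 3.30 and 1.53 TPM and of 3 trophoblast markers 7.27, 11.7 and 2.39 TPM. Within these sums, Pou5f1, Nanog and Sox2 were higher in C2 ceramide day 4 than in DMSO day 4, but Fgf5 and Otx2 were lower. Nes alone gave 20.7, 14.8 and 10.6 TPM of the neural sum. Krt7, unlike the trophoblast sum, was higher in C2 ceramide day 4 (4.44 TPM) than in DMSO day 4 (3.90 TPM). Sox1 was at 0 in both DMSO libraries and Elf5 in DMSO day 3, and no other marker was at 0. Marker levels thus differed between the libraries, most of all the streak and definitive endoderm markers in DMSO day 4. Their part in the ratios given below was not tested. In bulk samples, fewer cells of a type and less RNA per cell cannot be told apart.

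Degs2 was the only member with fewer than 10 counts in every library, and the other 9 passed that filter. The level of a gene is given in TPM, which divides by transcript length and can be compared between genes. Degs1 was the most abundant member in every library, at 190.7 TPM in C2 ceramide day 4, 214.0 TPM in DMSO day 4 and 235.6 TPM in DMSO day 3, which placed it above 94.5% to 95.6% of the 17655 genes that reached 10 counts in any library. Cers2, Sptlc2 and Cers5 followed with levels between 42.5 and 83.0 TPM, and then Sptlc1, Kdsr and Cers4 with levels between 11.8 and 24.6 TPM. Cers1 had 7.78, 6.22 and 6.08 TPM and Cers6 had 3.79, 2.45 and 3.35 TPM in C2 ceramide day 4, DMSO day 4 and DMSO day 3. This order was the same in the 3 libraries apart from Kdsr and Cers4. Kdsr was above Cers4 in C2 ceramide day 4, and Cers4 was above Kdsr in both DMSO libraries. Counting intervals of neighbours in the order overlapped between Cers2 and Sptlc2 in DMSO day 4 and between Sptlc1 and Cers4 in both DMSO libraries, so those places in the order are not resolved. The places of Sptlc2 and Cers4 also turned on the transcripts counted. By summed coding transcripts, Sptlc2 lay below Sptlc1 and Kdsr in every library, at 7.71, 24.0 and 15.7 TPM in C2 ceramide day 4. Cers4 then lay below Cers1 in every library, at 0.829 and 7.49 TPM in C2 ceramide day 4.

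**Figure D1:**
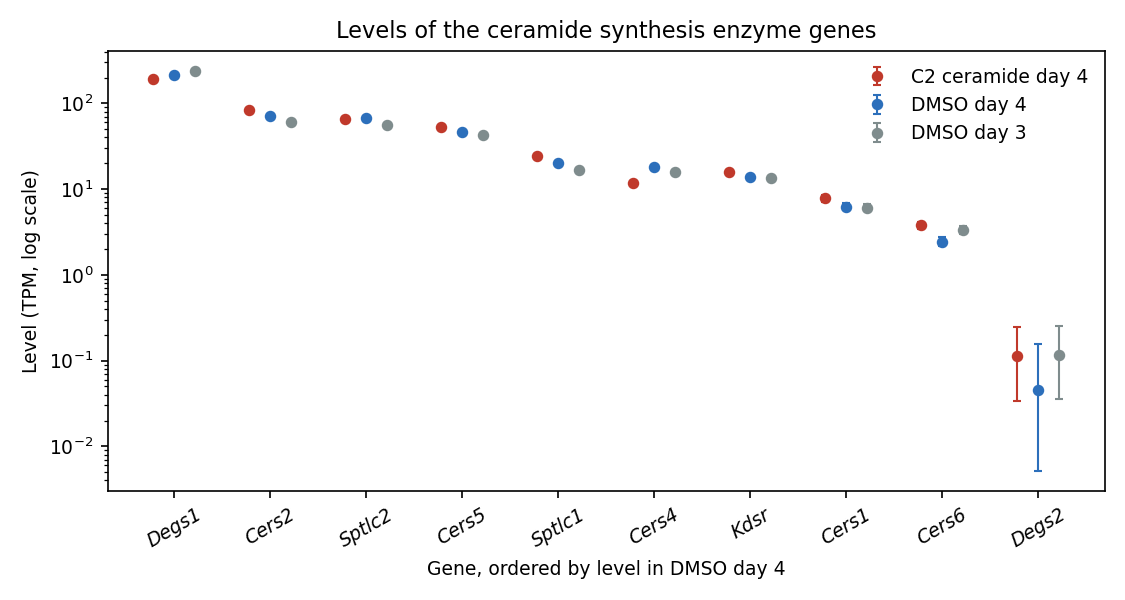
Level of each enzyme gene in TPM on a log axis, with 1 point per library (red, C2 ceramide day 4; blue, DMSO day 4; grey, DMSO day 3) and bars for 95% counting intervals. Degs1 lies between 190.7 and 235.6 TPM, Cers6 below 4 TPM and Degs2 at or below 0.117 TPM, and the libraries differ far less than the genes do.

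Between C2 ceramide day 4 and DMSO day 4, none of the 9 members with enough counts differed by more than 2-fold in TPM, where 22.3% of all 17655 genes did (9.97% higher and 12.3% lower). Cers6 was the only member past 1.5-fold higher (16.4% of all genes) and Cers4 the only member past 1.5-fold lower (19.5% of all genes), or 2 of 9 members against 36% of all genes in either direction. The counting interval lay above a ratio of 1 for 6 members, namely Sptlc1, Kdsr, Cers1, Cers2, Cers5 and Cers6 (30.8% of all genes), below it for Cers4 and Degs1 (35.1% of all genes), and on both sides of it for Sptlc2. At this depth such an interval excluded 1 for 65.9% of all genes, so that it says little about a gene. Of the 11006 deeply counted genes, those with at least 100 counts in every library, 326 were past 2-fold higher and 333 lower. Outside the quartiles of these genes (-0.25 to 0.22) lay 5 of 9 members. By definition, as many of these genes lie outside their quartiles as between them, in this and the other comparisons. The members had a median log2 ratio of 0.20 here, and all genes -0.03.

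Between DMSO day 4 and DMSO day 3, again 0 of 9 members passed 2-fold, against 22.3% of all genes (12.8% higher and 9.45% lower), and 0 passed 1.5-fold (35.8% of all genes). Of the 11006 deeply counted genes, 381 were past 2-fold higher and 233 lower, and 2 of 9 members lay outside their quartiles. The members had a median log2 ratio of 0.14, and all genes 0.05. Between C2 ceramide day 4 and DMSO day 3, 0 of 9 members passed 2-fold, against 20.6% of all genes (11.2% higher and 9.39% lower), and 0 passed 1.5-fold (34% of all genes). Of the same 11006 genes, 304 were past 2-fold higher and 170 lower here, and 6 of 9 members lay outside their quartiles. The median log2 ratios were 0.25 for the members and 0.03 for all genes. The comparisons share libraries, so their values are set side by side for each gene below and not combined.

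**Figure D2:**
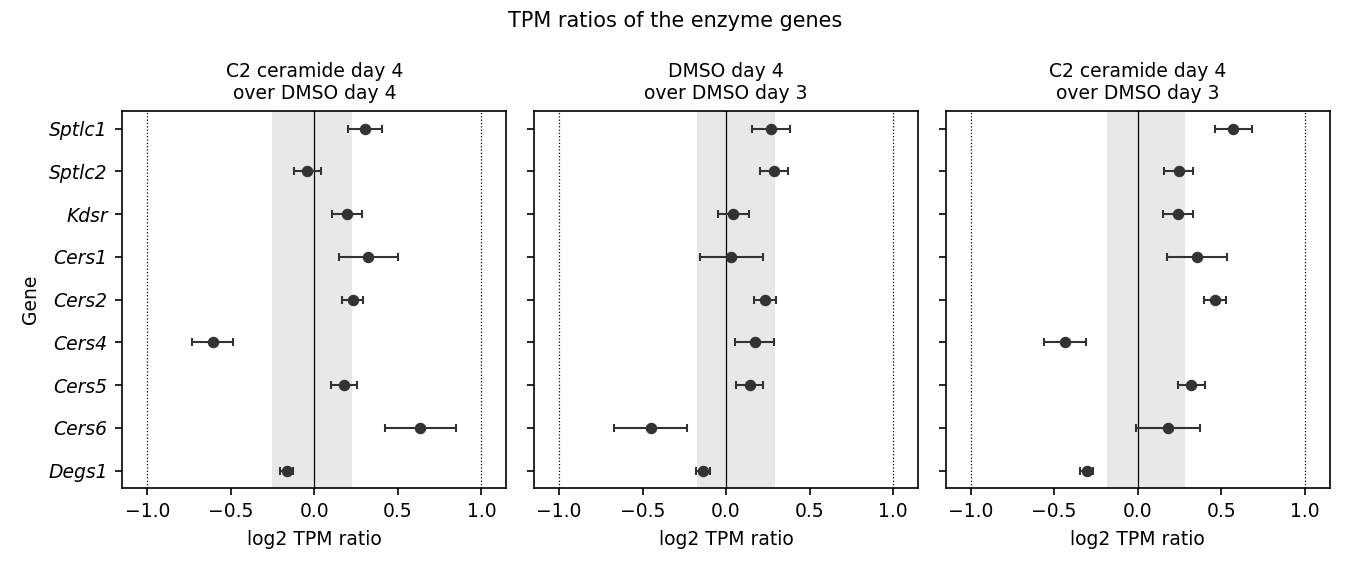
Log2 TPM ratio of the 9 members with at least 10 counts in a library, with 95% counting intervals, in the 3 comparisons. Dotted lines mark 2-fold and the grey band holds the middle 50% of the 11006 genes whose lowest library held 100 counts or more (-0.25 to 0.22 for C2 ceramide day 4 relative to DMSO day 4). In that comparison Cers6 at 0.63 and Cers4 at -0.61 lie farthest from 0, and no member reaches a dotted line.

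At the first step of the route, Sptlc1 (chromosome 13, 53332748 to 53377397, minus strand, build GRCm38), which encodes an SPT subunit that Sptlc2 needs for activity, had 24.6 TPM in C2 ceramide day 4, 19.9 TPM in DMSO day 4 and 16.5 TPM in DMSO day 3, from 1744, 1405 and 1091 counts. The treated library was thus highest and the youngest library lowest. The log2 ratio of C2 ceramide day 4 to DMSO day 4 was 0.30 (interval 0.20 to 0.41), that of DMSO day 4 relative to DMSO day 3 was 0.27 (0.16 to 0.39) and that of C2 ceramide day 4 relative to DMSO day 3 was 0.57 (0.46 to 0.68). Sptlc1 had the largest ratio of any member in the last of these. Its single expressed coding transcript, of 2606 bases, carried 97.8%, 98.6% and 93.6% of the gene's TPM.

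Sptlc2 (chromosome 12, 87305058 to 87388355, minus strand) encodes the subunit that holds the catalytic site. Its gene-level values were 65.8 TPM in C2 ceramide day 4, 67.8 TPM in DMSO day 4 and 55.5 TPM in DMSO day 3, from 2255, 2733 and 2043 counts. By TPM a difference between the day 4 libraries was not resolved (log2 ratio -0.04, interval -0.12 to 0.04), whereas by counts per library total the log2 ratio was -0.29.

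The transcript table shows what lay behind these values. The only coding transcript of Sptlc2, of 6710 bases, had 7.71 TPM in C2 ceramide day 4, 10.4 TPM in DMSO day 4 and 7.66 TPM in DMSO day 3, and made up 66.1%, 72.6% and 70.2% of the gene's counts. A processed transcript without an annotated reading frame, of 704 bases, had 35.2, 36.8 and 30.2 TPM in the same libraries, and another of 763 bases had 22.6, 19.5 and 17.5 TPM. All 763 bases of the longer processed transcript and 648 of the 704 bases of the shorter one lie in exons of the coding transcript, so that most reads from them could have come from either. For the coding transcript alone, the log2 ratio of C2 ceramide day 4 to DMSO day 4 was -0.43 (-0.53 to -0.33), and that of DMSO day 4 relative to DMSO day 3 was 0.44 (0.34 to 0.54). The coding transcript was thus highest in DMSO day 4 and at a like level in the other libraries, a pattern that the gene-level TPM did not show. The ratio of Sptlc2 to Sptlc1 was 2.68, 3.40 and 3.36 by gene-level TPM but 0.321, 0.529 and 0.495 by their main coding transcripts, so which subunit gene was the more abundant turned on the transcripts counted.

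Of the other SPT subunits and regulators, Sptssb was at 0 and Sptlc3 had at most 2 counts in every library. The remaining 4 genes of this list all stayed within 2-fold between C2 ceramide day 4 and DMSO day 4, with a median log2 ratio of 0.07. Sptssa, a small subunit that raises SPT activity, had 47.9 TPM in C2 ceramide day 4, 74.1 TPM in DMSO day 4 and 54.6 TPM in DMSO day 3, with a log2 ratio of C2 ceramide day 4 to DMSO day 4 of -0.63 (-0.74 to -0.53). Like the coding transcript of Sptlc2, Sptssa was highest in DMSO day 4. Ormdl1 and Ormdl3, which hold SPT in check when sphingolipids are plentiful, had log2 ratios of 0.20 and 0.21 in that comparison, and Ormdl2, the most abundant of these 3 regulators, had -0.06 (-0.15 to 0.03).

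Kdsr (chromosome 1, 106720459 to 106759727, minus strand), the ketoreductase of the following step, was among the steadiest members. It had 15.8 TPM in C2 ceramide day 4, 13.8 TPM in DMSO day 4 and 13.4 TPM in DMSO day 3, from 2250, 1936 and 1859 counts. On the log2 scale, the ratio of C2 ceramide day 4 to DMSO day 4 was 0.20 (0.11 to 0.28), and that of DMSO day 4 relative to DMSO day 3 was 0.04 (-0.05 to 0.14). A coding transcript of 5518 bases carried at least 98.0% of its TPM in every library.

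Among the ceramide synthases, Cers2 (chromosome 3, 95314791 to 95323599, plus strand), which prefers very long acyl chains, was the most abundant. It had 83.0 TPM in C2 ceramide day 4, 70.8 TPM in DMSO day 4 and 60.3 TPM in DMSO day 3, with log2 ratios of 0.23 (0.17 to 0.29) for C2 ceramide day 4 relative to DMSO day 4 and 0.23 (0.17 to 0.30) for DMSO day 4 relative to DMSO day 3. Cers5 (chromosome 15, 99734881 to 99772885, minus strand), which mainly uses palmitoyl-CoA, showed the same order of libraries at 53.0, 46.8 and 42.5 TPM, with log2 ratios of 0.18 (0.10 to 0.26) and 0.14 (0.06 to 0.22). Both genes, like Sptlc1, were highest in C2 ceramide day 4 and lowest in DMSO day 3. Main coding transcripts of 2216 bases for Cers2 and 2096 bases for Cers5 carried 82.1% to 88.5% and 90.5% to 94.4% of gene TPM over the libraries.

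Cers6 (chromosome 2, 68861441 to 69114282, plus strand), which shares the preference of Cers5 for palmitoyl-CoA, had a different order of libraries. It had 3.79 TPM in C2 ceramide day 4, 2.45 TPM in DMSO day 4 and 3.35 TPM in DMSO day 3, from 483, 296 and 405 counts. DMSO day 4 was the lowest library, with a log2 ratio of -0.45 (-0.67 to -0.23) over DMSO day 3, and C2 ceramide day 4 was higher than DMSO day 4 by a log2 ratio of 0.63 (0.42 to 0.85). C2 ceramide day 4 relative to DMSO day 3 gave 0.18 (-0.01 to 0.38), an interval that includes 0. The main coding transcript, of 7038 bases, had 2.22, 1.33 and 1.91 TPM, and for it that ratio was 0.22 (0.02 to 0.42).

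Cers4 (chromosome 8, 4493026 to 4531680, plus strand), which prefers long acyl chains just above those of Cers5, was the member that was furthest below DMSO day 4 in treated EBs. It had 11.8 TPM in C2 ceramide day 4, 18.0 TPM in DMSO day 4 and 16.0 TPM in DMSO day 3, from 969, 1290 and 1166 counts. The log2 ratio was -0.61 (-0.73 to -0.49) for C2 ceramide day 4 relative to DMSO day 4, 0.17 (0.06 to 0.29) for DMSO day 4 relative to DMSO day 3 and -0.44 (-0.56 to -0.31) for C2 ceramide day 4 relative to DMSO day 3. The treated library thus lay below both DMSO libraries. By counts per library total the first of these ratios was smaller, at -0.42.

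Most Cers4 RNA was assigned to transcripts that keep an intron. One of them, of 3369 bases, led in every library with 6.30 TPM in C2 ceramide day 4, 7.88 TPM in DMSO day 4 and 7.41 TPM in DMSO day 3, or 65.2%, 60.5% and 61.5% of the gene's counts. The full-length coding transcript, of 9475 bases, had 0.829, 1.14 and 1.13 TPM in the same libraries, with a log2 ratio of C2 ceramide day 4 to DMSO day 4 of -0.46 (-0.72 to -0.20). The lower level in treated EBs was thus also seen for that transcript, on 215 counts in C2 ceramide day 4 and 293 counts in DMSO day 4. The sum of coding transcripts gave -1.78, but this value rested on a transcript of 387 bases with 0 counts in C2 ceramide day 4, 6.40 counts in DMSO day 4 and 4.77 counts in DMSO day 3. A transcript of 874 bases annotated for nonsense-mediated decay had 0, 1.05 and 4.01 TPM, on 0, 19.3 and 71.6 counts. One of 908 bases with a retained intron had 4.30, 4.74 and 1.08 TPM, on 85.7, 93.0 and 20.5 counts. The make-up of Cers4 RNA as assigned thus differed between DMSO day 4 and DMSO day 3 more than its total did. Of the 3369 bases of the leading transcript, 2667 lie in exons of the full-length coding transcript. Many of its reads could have come from either, and errors in assigning reads were not tested.

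Cers1 (chromosome 8, 70315775 to 70331592, plus strand), known from brain and skeletal muscle as the synthase for stearoyl-CoA, had 7.78 TPM in C2 ceramide day 4, 6.22 TPM in DMSO day 4 and 6.08 TPM in DMSO day 3. Its log2 ratio was 0.32 (0.15 to 0.50) for C2 ceramide day 4 relative to DMSO day 4 and 0.03 (-0.16 to 0.22) for DMSO day 4 relative to DMSO day 3. The transcript table gave its longer coding transcript, of 2728 bases, 7.49 TPM in C2 ceramide day 4, 1.67 TPM in DMSO day 4 and 6.08 TPM in DMSO day 3. The shorter one, of 2711 bases, had 0, 4.55 and 0 TPM in the same libraries. It starts 12 bases downstream, which are the bases in capitals in the Cers1 sequence above, ends 5 bases earlier, and is otherwise identical in exon sequence. Cers1 was the only member whose leading transcript was not the same in the 3 libraries, and the switch rested on those 17 bases.

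Gdf1, which encodes a ligand of the transforming growth factor β family that acts with Nodal in the early embryo, is read from the same strand, and all 1349 bases of its transcript lie in exons of Cers1. It had 2.72 TPM in C2 ceramide day 4, 2.43 TPM in DMSO day 4 and 6.10 TPM in DMSO day 3, on 87.1, 77.5 and 190 counts. Reads that fall in these shared bases cannot be told apart between the 2 genes. Cers1 and Gdf1 counts together came to 667 in C2 ceramide day 4, 551 in DMSO day 4 and 643 in DMSO day 3, of which Cers1 was given 86.9%, 85.9% and 70.5%. Per library total, the log2 ratio of this sum was 0.27 (0.10 to 0.43) for C2 ceramide day 4 relative to DMSO day 4 and -0.28 (-0.45 to -0.12) for DMSO day 4 relative to DMSO day 3. The difference between the day 4 libraries was therefore alike with and without Gdf1, while the level seen for Cers1 in DMSO day 3 turned on the split of reads.

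Of the other genes that overlap members, Upf1, Setdb1 and Evl had more than 5 counts. Upf1 and Setdb1, both read from the opposite strand, overlap the ends of Cers1 by 68 bases and of Cers2 by 75 bases, and had 37.8 to 40.5 TPM and 25.7 to 27.6 TPM over the libraries. Evl overlaps Degs2 by 9806 bases from the opposite strand, with 10.1 TPM in C2 ceramide day 4, 14.7 TPM in DMSO day 4 and 12.2 TPM in DMSO day 3. The study's methods describe amplified double-stranded cDNA made into Nextera XT libraries and name no step that keeps strand. Reads in these overlaps therefore cannot be assigned to a gene by strand. The other 12 overlapping genes had at most 5 counts in any library.

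**Figure D3:**
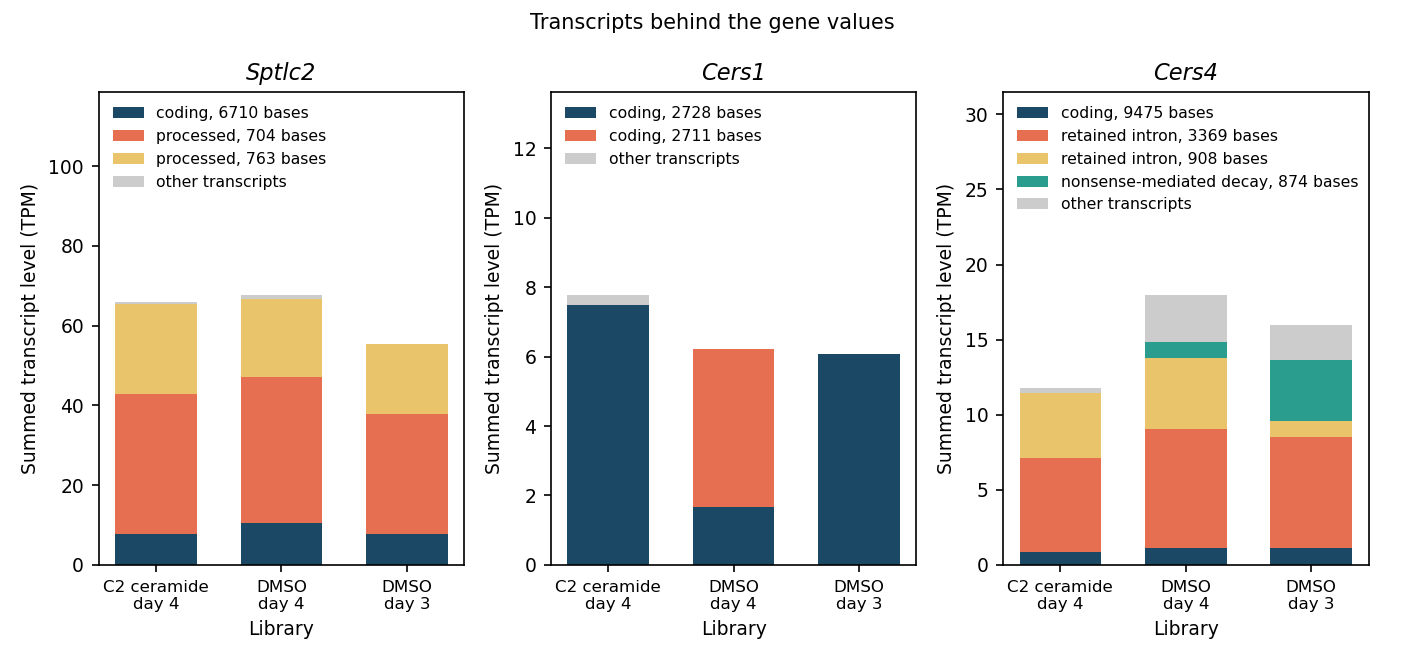
Level of the transcripts of Sptlc2, Cers1 and Cers4 in TPM, stacked within each library, with coloured parts for the transcripts named in the text and grey for the rest. Coding RNA (dark blue) is the smallest coloured part of Sptlc2, and the coding transcripts of Cers1 change places in DMSO day 4. Retained-intron transcripts make up most of Cers4 in every library.

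The mix of ceramide synthases was measured as the share of each gene in the summed TPM of Cers1 to Cers6, which was 159.6 TPM in C2 ceramide day 4, 144.7 TPM in DMSO day 4 and 128.2 TPM in DMSO day 3. Cers2 made up 52.0% in C2 ceramide day 4, 49.0% in DMSO day 4 and 47.0% in DMSO day 3, and Cers5 33.2%, 32.4% and 33.1%. Cers4 made up 7.39% in C2 ceramide day 4, against 12.4% in DMSO day 4 and 12.5% in DMSO day 3. Cers1 made up 4.88%, 4.30% and 4.74%, and Cers6 2.38%, 1.69% and 2.61%. Cers2 and Cers5 thus made up most of the mix in every library, and the share of Cers4 was the one that set the treated library apart. In all, 5.19 percentage points of the mix lay elsewhere in C2 ceramide day 4 than in DMSO day 4, against 2.15 points between DMSO day 4 and DMSO day 3. With coding transcripts alone these values were 1.94 and 1.66 points, so that the larger shift was not seen without the noncoding transcripts. Cers3, the synthase for ultra-long chains in skin and testis, was close to absent with 7 counts in C2 ceramide day 4, 17 counts in DMSO day 4 and 2 counts in DMSO day 3.

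**Figure D4:**
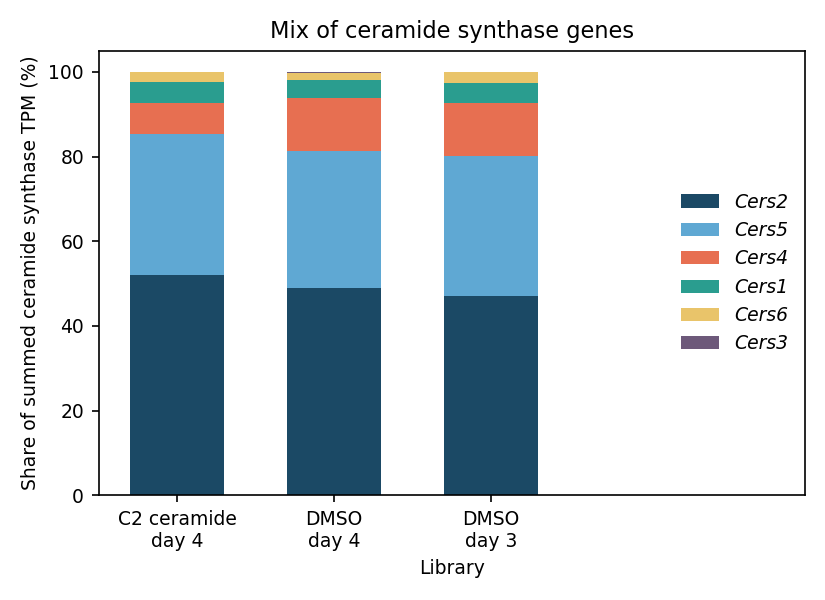
Share of each ceramide synthase gene in the summed TPM of Cers1 to Cers6, as stacked bars for C2 ceramide day 4, DMSO day 4 and DMSO day 3. Cers2 and Cers5 fill most of each bar, and the Cers4 part is 7.39% in C2 ceramide day 4, against 12.4% in DMSO day 4.

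At the last step, Degs1 (chromosome 1, 182275772 to 182282804, minus strand) had 190.7 TPM in C2 ceramide day 4, 214.0 TPM in DMSO day 4 and 235.6 TPM in DMSO day 3, from 9203, 9714 and 11112 counts. It was lowest in the treated library and highest in the youngest one, the reverse of Sptlc1, Cers2 and Cers5. Its log2 ratio was -0.17 (-0.21 to -0.13) for C2 ceramide day 4 relative to DMSO day 4, -0.14 (-0.18 to -0.10) for DMSO day 4 relative to DMSO day 3 and -0.30 (-0.34 to -0.26) for C2 ceramide day 4 relative to DMSO day 3. The main coding transcript, of 2048 bases, had 169.4, 176.6 and 208.9 TPM, and the difference between the day 4 libraries was smaller for it, at -0.06 (-0.10 to -0.02). A shorter coding transcript of 779 bases had 17.5, 32.7 and 15.6 TPM. Degs1 made up 41.8% of the summed TPM of the 10 members in C2 ceramide day 4, 46.5% in DMSO day 4 and 52.4% in DMSO day 3. That sum itself was close to level, at 456.6, 460.0 and 449.3 TPM.

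Degs2 (chromosome 12, 108678711 to 108702315, minus strand) had 5.33 counts in C2 ceramide day 4, 2.14 counts in DMSO day 4 and 5.37 counts in DMSO day 3, or 0.112, 0.046 and 0.117 TPM. A log2 ratio of 1.28 for C2 ceramide day 4 relative to DMSO day 4 had an interval of -1.32 to 4.68, and a difference was not detectable at this depth. Nearly all desaturase RNA counted in these EBs was that of Degs1.

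Genes that supply acyl chains or handle ceramide were read beside the members. Of 13 genes of acyl-CoA elongation, 1 was past 2-fold higher (9.97% of all genes) and 0 lower (12.3% of all genes) in C2 ceramide day 4 than in DMSO day 4, with a median log2 ratio of -0.13. The higher one was Elovl3, at 19 counts in C2 ceramide day 4, 0 counts in DMSO day 4 and 6 counts in DMSO day 3, which made it at least 6.30-fold higher when 3 counts are allowed for the 0. Hacd3, a dehydratase of the elongation cycle, had 25.3 TPM in C2 ceramide day 4 and 42.9 TPM in DMSO day 4 (log2 ratio -0.76), Hacd1, another such dehydratase, 51.7 and 70.0 TPM (-0.44), and Elovl2, an elongase of polyunsaturated chains, 2.79 and 4.74 TPM (-0.76). Between DMSO day 4 and DMSO day 3, Hacd4 was past 2-fold higher (12.8% of all genes) and Elovl3 lower (9.45% of all genes), with a median of 0.06 over the list. The Hacd4 call rested on 28.1 counts in DMSO day 4 and 12.6 counts in DMSO day 3 (log2 ratio 1.13, interval 0.09 to 2.16).

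Of the genes of ceramide transport and hydroxylation, Plekha8, which encodes a glucosylceramide carrier of the Golgi, was past 2-fold lower at 5.28 TPM in C2 ceramide day 4, against 14.8 TPM in DMSO day 4 (log2 ratio -1.48, interval -1.61 to -1.36), and had 5.09 TPM in DMSO day 3. DMSO day 4 stood alone for this gene. Col4a3bp, which carries ceramide to the Golgi for sphingomyelin synthesis, and Cptp, which carries ceramide 1-phosphate, had log2 ratios of 0.23 and -0.09 for C2 ceramide day 4 relative to DMSO day 4. Fa2h, the fatty acid hydroxylase, had at most 7 counts in any library.

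Of 16 enzymes that use or release ceramide, 15 had enough counts, 2 were past 2-fold higher (9.97% of all genes) and 0 lower (12.3% of all genes) in C2 ceramide day 4 than in DMSO day 4, and the median log2 ratio was 0.11. Ugt8a, which makes galactosylceramide, had 4.03 TPM in C2 ceramide day 4, 1.87 TPM in DMSO day 4 and 4.54 TPM in DMSO day 3 (log2 ratio of C2 ceramide day 4 to DMSO day 4 of 1.11, interval 0.84 to 1.38). The other one past 2-fold was the neutral ceramidase Asah2, with 4 counts in C2 ceramide day 4, 0 counts in DMSO day 4 and 13 counts in DMSO day 3, which is only at least 1.33-fold when 3 counts are allowed for the 0. Asah1, the lysosomal acid ceramidase, had 106.7 TPM in C2 ceramide day 4, 65.5 TPM in DMSO day 4 and 64.2 TPM in DMSO day 3, a log2 ratio of 0.70 (0.64 to 0.77) over DMSO day 4. The treated library stood above both DMSO libraries for Asah1. Sgms1, the sphingomyelin synthase of the Golgi, had 11.0 TPM in C2 ceramide day 4 and 15.3 TPM in DMSO day 4, a log2 ratio of -0.48 (-0.60 to -0.35). Between DMSO day 4 and DMSO day 3, Sgms2, Ugt8a and Asah2 were past 2-fold lower (9.45% of all genes) and 0 genes of this list were past 2-fold higher. For Sgms2 the call was lost by counts per library total, at 0.819-fold, against 0.425-fold by TPM.

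**Figure D5:**
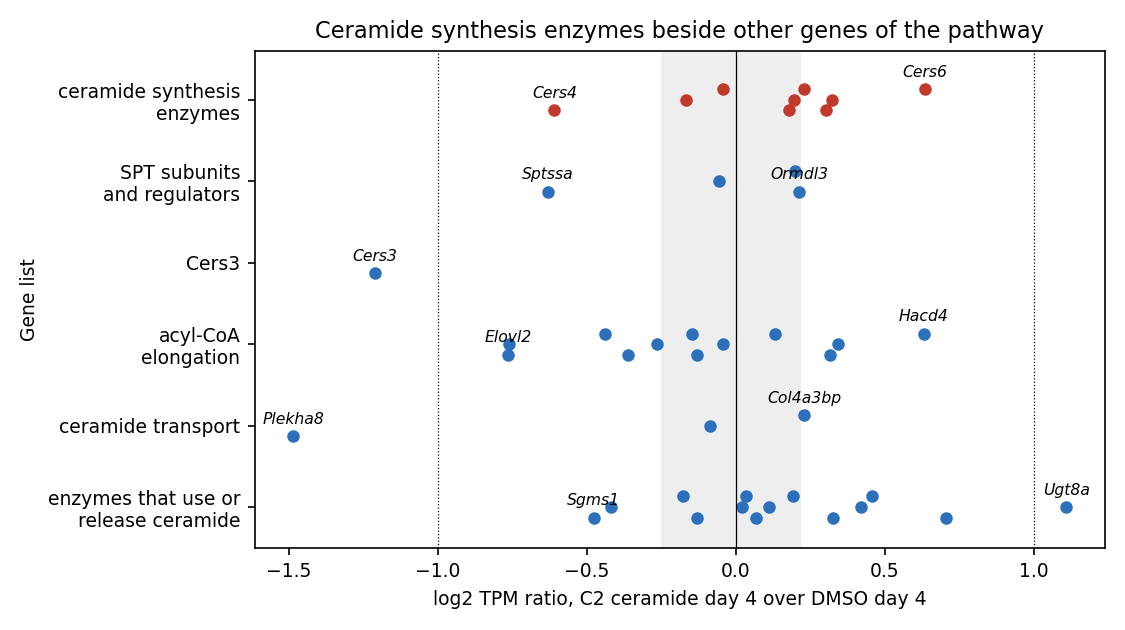
Log2 TPM ratio of C2 ceramide day 4 to DMSO day 4 for the members (red) and for the other genes of the pathway (blue), 1 point per gene with at least 10 counts in a library, with names at the ends of each row. Elovl3 and Asah2 are not drawn because they had 0 counts in DMSO day 4. Dotted lines mark 2-fold and the grey band the middle 50% of deeply counted genes, as in the plot of member ratios. The members lie between -0.61 and 0.63, while Plekha8 and Cers3 lie below and Ugt8a above the 2-fold lines. The Cers3 point rests on 7 and 17 counts, and its interval of -2.72 to 0.13 includes 0.

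Genes with a pattern over the 3 libraries most like that of Cers6, which among the 9 members with enough counts had the largest log2 ratio of C2 ceramide day 4 to DMSO day 4, were sought among protein-coding genes of at least 10 TPM in a library, by distance in the log2 ratios of DMSO day 4 to DMSO day 3 and of C2 ceramide day 4 relative to DMSO day 4. Des, which encodes the muscle intermediate filament desmin, was nearest at a distance of 0.021, with 16.6 TPM in C2 ceramide day 4, 10.8 TPM in DMSO day 4 and 14.9 TPM in DMSO day 3. Ankrd12 lay at 0.032 and Dhx16 at 0.034. With 3 libraries, such a likeness describes these values only.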

How the data were processed

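Per the labels and the study's methods, RNA from 3 EB cultures was amplified with the SMART-Seq v4 kit, made into Nextera XT libraries, sequenced on a NovaSeq instrument and quantified with DRAGEN on GRCm38 with GENCODE M25. The authors deposited TPM, which have the same sum in each library, and expected counts, which are not whole and not normalized, for genes and transcripts. SMART-Seq cDNA carries no molecular identifiers, so PCR copies were counted separately.

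Ratios of TPM were taken over the 17655 genes that reached 10 counts in any library (SciPy 1.17.1, pandas 2.3.3 and NumPy 2.4.6 under Python 3.11.15), with a TPM of 0 set to 0.001 and calls past 2-fold. Intervals are exact conditional (Clopper-Pearson) 95% intervals of rounded counts per library total, placed around the TPM ratio. The ratio and interval steps per library total were tested on simulated counts with counting error only. That test did not cover the placing of intervals around the TPM ratio or errors in assigning reads. No test between conditions was possible with 1 library each. Exon models were taken from GENCODE M21, in which all 52 transcripts of the members and Gdf1 had the same length as in the deposited table. Members and lists were chosen with earlier results of these data known. All members, the genes overlapping them, and per list the up to 3 genes of 50 counts or more that lay farthest from a day 4 ratio of 1 are named, and genes of a list past 2-fold and Ormdl2 were named after their values were seen. Alternatives were CPM, edgeR 4.0.16 TMM and DESeq2 1.42.0 size factors in R 4.3.3 on rounded counts, pseudocounts of 0.1 and 1 TPM, coding transcripts alone, other filters and thresholds. Figures were drawn with Matplotlib 3.10.9.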

Additional observations from a re-analysis of the deposited data

How the results depend on the processing

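No paired analysis was possible because each condition had 1 library, and no library could be left out. The count of members past 2-fold between C2 ceramide day 4 and DMSO day 4 was 0, but 1 with coding transcripts alone (Cers4, lower), 1 with no filter on low counts (Degs2, higher) and 2 at a threshold of 1.5-fold. Between DMSO day 4 and DMSO day 3 it was 1 with no filter (Degs2, lower), and between C2 ceramide day 4 and DMSO day 3 it was 1 with coding transcripts alone (Cers4, lower). The median log2 ratio of the members for DMSO day 4 over DMSO day 3 was 0.0487 with TMM factors, against 0.14 by TPM. The mix of ceramide synthases differed by 1.94 points between C2 ceramide day 4 and DMSO day 4 with coding transcripts alone, against 5.19, and by 2.29 points between C2 ceramide day 4 and DMSO day 3, against 5.30. Of 180 log2 ratios of single members recomputed under an alternative, 150 lay inside the counting interval of the reported ratio and 30 outside it, 7 of them with coding transcripts alone. For Sptlc2, C2 ceramide day 4 over DMSO day 4 was -0.29 by CPM, -0.26 by TMM or DESeq2 scaling and -0.43 for coding transcripts, against -0.04. For Degs1 it was -0.09 by CPM and -0.06 by either scaling, against -0.17. CPM, both scalings, both pseudocounts and coding transcripts alone each moved the median of all genes by less than 0.1 on the log2 scale. The depth limits Degs2 and Cers3, and the single library per condition limits every comparison.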
